A study of Mus musculus with 12 samples.

Results

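The 10 mouse genes described here were chosen by name. They are the liver X receptor (LXR) genes *Nr1h3* and *Nr1h2*, and 8 genes of cholesterol efflux, transfer, uptake or storage. The 8 genes are *Abca1*, *Abcg1*, *Abcg5*, *Abcg8*, *Mylip*, *Pltp*, *Scarb1* and *Soat2*. All 10 were found among the 54232 genes of the count table and all 10 passed the filter on low counts that left 17509 genes for testing. Liver mRNA was sequenced from 6 WT and 6 LKO mice, 1 library per mouse. All were male C57Bl/6J mice, 10 weeks old, on a standard chow diet and fasted for 4 h. LKO mice carried floxed *Marchf6* alleles (*Marchf6* fl/fl, AlbuminCre+) and lack an exon of *Marchf6*, given as exon 2 in the labels, in cells where the albumin promoter drives Cre, which are chiefly hepatocytes. The text of the study does not number this exon the same way throughout. The animals labelled WT were littermates with the same floxed alleles and no Cre (AlbuminCre-), so a separate effect of the Cre transgene cannot be told apart from that of the deletion. The comparison asks how loss of the ubiquitin ligase MARCHF6 from hepatocytes changes the liver transcriptome, here for these 10 genes.

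LXRα, encoded by *Nr1h3*, and LXRβ, encoded by *Nr1h2*, are nuclear receptors that sense oxysterols, the oxidised derivatives of cholesterol. With retinoid X receptors (RXR) they bind a direct repeat of AGGTCA with 4 bases between the copies, and they induce genes that move sterol out of cells, into bile and onto high-density lipoprotein (HDL). In liver they also raise fatty acid synthesis, while the transcription factor SREBP2 controls cholesterol synthesis and uptake when sterol is scarce.

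Promoter sequences from RefSeq (GRCm38.p6) are shown for the genes whose transcription start bears on the results: *Abca1* with the closest match to the LXR repeat, the segment between a start of *Abcg5* and a start of *Abcg8*, and *Pltp*, the gene that changed. For *Abca1* the 250 bases before the start site (chr4:53159896-53160145, minus strand, read along the gene) hold a match, in capitals, that differs from the repeat at 3 positions and reads on the opposite strand from the gene, 67 to 52 bases before the start.
Abca1: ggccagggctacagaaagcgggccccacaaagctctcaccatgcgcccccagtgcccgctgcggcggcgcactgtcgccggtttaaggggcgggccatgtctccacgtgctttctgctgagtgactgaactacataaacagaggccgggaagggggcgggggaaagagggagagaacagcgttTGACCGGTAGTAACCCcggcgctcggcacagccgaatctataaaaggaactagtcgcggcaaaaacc
From the RefSeq start of *Abcg5* and the nearer of 2 listed starts of *Abcg8*, these genes are transcribed away from each other, with 109 bases between the start sites (chr17:84683012-84683120, shown on the plus strand, in the direction of *Abcg8*, 45.9% G or C). The other *Abcg8* start, at 84676302, lies inside the *Abcg5* gene.
Abcg5_Abcg8: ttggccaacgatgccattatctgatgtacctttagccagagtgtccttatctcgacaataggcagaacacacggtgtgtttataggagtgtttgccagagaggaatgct
For *Pltp* the 250 bases before the start (chr2:164857709-164857958, minus strand, read along the gene) are given in full, with no part in capitals.
Pltp: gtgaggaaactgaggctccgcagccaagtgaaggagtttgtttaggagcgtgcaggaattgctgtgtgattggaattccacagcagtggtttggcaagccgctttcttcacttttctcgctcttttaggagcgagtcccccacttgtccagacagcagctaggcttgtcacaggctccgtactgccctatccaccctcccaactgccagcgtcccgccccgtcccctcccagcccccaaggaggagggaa
The repeat of AGGTCA was searched on both strands of 9 such windows of 7 of the genes. The *Abca1* window was 1 window of these 9 within 3 mismatches, against 18.5% of 32851 promoter windows of the mouse genome. A match is a description of letters, not of binding.

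The depth was 14860414 to 22111926 reads counted on genes per liver, and correlations of log2 CPM between livers lay between 0.9663 and 0.9802. Levels are given as normalized CPM, read counts scaled to a common library size and adjusted between livers by TMM. The count of *Marchf6* over the whole gene was 241 ± 8.36 CPM in WT and 226 ± 16.5 CPM in LKO (mean ± SD, n = 6 each; log2 fold change -0.09, edgeR adjusted p = 0.585). It sums all exons, so it does not check the deletion of an exon. The library numbers of the WT group all precede those of the LKO group, so library order and genotype cannot be told apart. The 8 hepatocyte markers summed to 105600 to 127900 CPM in WT and 97680 to 107700 CPM in LKO livers, with a negative log2 fold change for 6 of 8, 2 of them with an unadjusted p under 0.05, and 0 passed the adjusted test by edgeR, limma voom or DESeq2. The 13 Kupffer cell markers, which mark resident macrophages, summed to 156 to 209 CPM in WT and 187 to 322 CPM in LKO livers, and 5 of 6 LKO livers lay above all WT livers. All 13 had a positive log2 fold change, 11 of them with an unadjusted p under 0.05, against 11.7% of all genes tested. Of the 13, 0 passed the adjusted test by edgeR or limma voom and 3 by DESeq2, which called 351 genes over all genes. The 8 stellate cell markers summed to 210 to 317 CPM in WT and 257 to 365 CPM in LKO livers, and 3 of 6 LKO livers lay above all WT livers. All 8 had a positive log2 fold change, 2 of them with an unadjusted p under 0.05, and 0 passed by edgeR, limma voom or DESeq2. The 8 sinusoidal endothelial markers summed to 232 to 309 CPM in WT and 250 to 304 CPM in LKO livers. Their log2 fold change was positive for 7 and negative for 1, with 1 at an unadjusted p under 0.05, and 0 passed by edgeR or limma voom and 1 by DESeq2. The 6 cholangiocyte markers ranged from 37.5 to 63.8 CPM in WT and from 34.5 to 130 CPM in LKO livers. The 7 B cell markers summed to 16.4 to 24.4 CPM in WT and 6.92 to 10.3 CPM in LKO livers, of which *Ighm*, an immunoglobulin heavy chain gene, fell by 1.78 on the log2 scale (adjusted p = 4.06e-06, edgeR). The other 6 B cell markers had positive log2 fold changes, 5 of them with an unadjusted p under 0.05 and 0 past the adjusted test of edgeR, and *Ighm* was 18.5 of the mean sum of 20.4 CPM in WT livers. None of the lists had a marker at 0 in every liver. In bulk liver, fewer cells of a type and less RNA per cell cannot be told apart.

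Of the 10 genes, *Pltp* rose in LKO livers and the other 9 did not pass the test, at an adjusted p threshold of 0.05 in edgeR's quasi-likelihood test over all genes. The *Pltp* level was 2.97 times as high in LKO as in WT livers. Over all 17509 genes, 75 (0.428%) passed in either direction and 48 (0.274%) passed as higher in LKO. The log2 fold changes (LKO minus WT) were positive for 8 of the 10 genes and negative for *Abca1* and *Scarb1*. Their median was 0.16, against 0.000165 for all genes tested. At an unadjusted p under 0.05, 3 of the 10 genes, *Pltp*, *Abcg5* and *Mylip*, were higher in LKO, against 11.7% of all genes in either direction. The WT and LKO livers did not overlap for 1 of the 10 genes, *Pltp*, as for 1.30% of all genes. The shares of 0.428%, 11.7% and 1.30% over all genes are the background for the marker lists above and the further lists below as well.

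**Figure D1:**
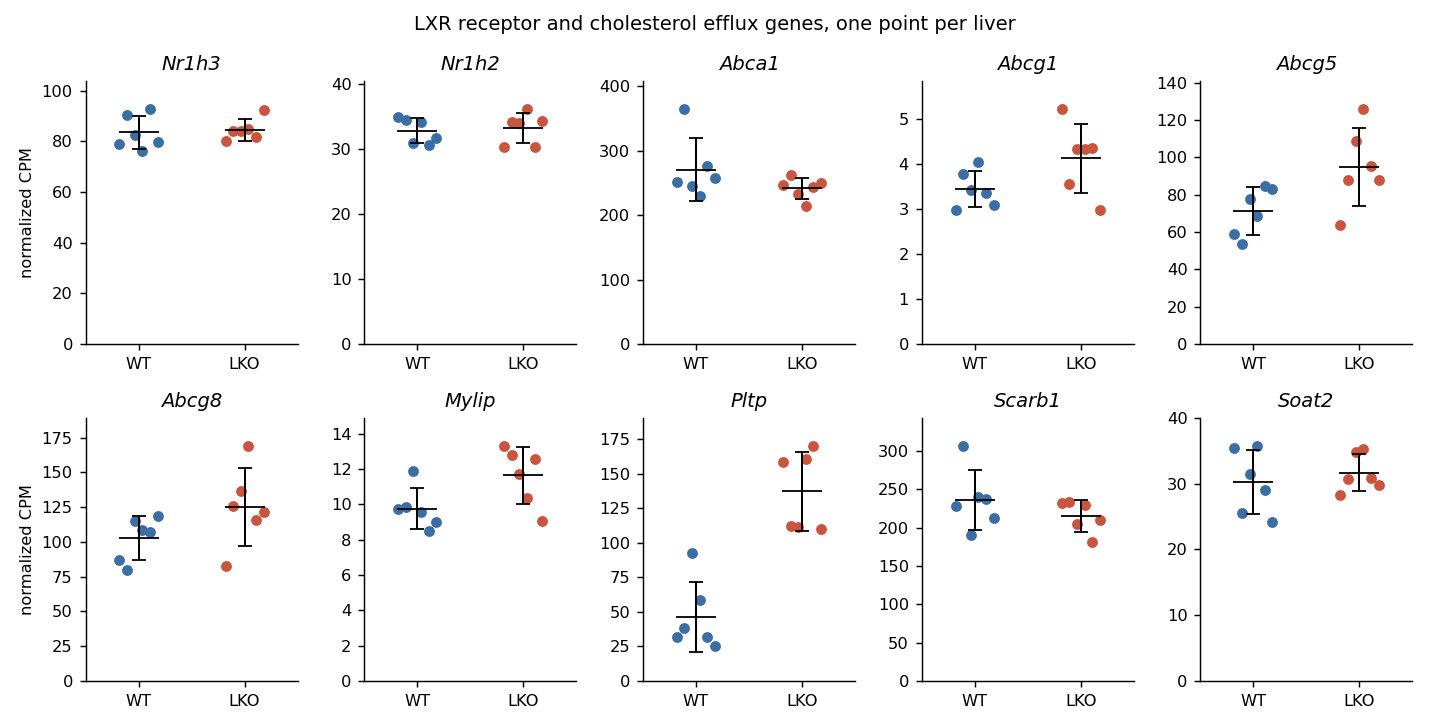
Normalized CPM (y axis, linear from 0) of each of the 10 genes in 6 WT (blue) and 6 LKO (red) livers, 1 point per liver, with the mean as a line and the SD as a bar. For Pltp the LKO livers, from 110 to 170 CPM, all lie above the WT livers, and in the other 9 panels the groups overlap.

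The receptor genes were expressed at nearly the same level in both genotypes. *Nr1h3* (ENSMUSG00000002108, chr2:91184061-91202834, minus strand), the main LXR of liver, ranged from 76.2 through a median of 81.3 to 92.7 CPM in WT and from 80.3 through 83.9 to 92.4 CPM in LKO livers. The LKO range lay inside the WT range, and the log2 fold change was 0.02 (SE 0.063, 95% interval -0.12 to 0.15, adjusted p = 0.953, edgeR). *Nr1h2* (ENSMUSG00000060601, chr7:44549616-44553951, minus strand), which is expressed in most tissues, ranged from 30.7 through 33.0 to 35.0 CPM in WT and from 30.4 through 34.2 to 36.2 CPM in LKO livers. Its log2 fold change was 0.02 (SE 0.064, 95% interval -0.12 to 0.15, adjusted p = 0.949, edgeR). Per kilobase of all annotated exons joined, *Nr1h3* was 3.41 times as abundant as *Nr1h2* in WT and 3.40 times in LKO livers. These values depend on that length, which need not be that of the expressed transcript. The mean log2 ratio of *Nr1h3* to *Nr1h2* CPM was 1.34 ± 0.16 in WT and 1.35 ± 0.083 in LKO (SD, n = 6; exact two-sided permutation p = 0.985 over 924 assignments, adjusted over 2 ratios p = 0.985).

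Among the dimer partners and coregulators of the receptors, 0 of 16 tested genes passed by edgeR, limma voom or DESeq2, with 3 at an unadjusted p under 0.05, all lower in LKO. *Ncoa2*, a coactivator, was 84.7 ± 3.29 CPM in WT and 73.9 ± 5.66 in LKO (log2 fold change -0.20, adjusted p = 0.197, edgeR). *Rxra*, the principal RXR of hepatocytes, was 620 ± 49.0 CPM in WT and 542 ± 30.0 in LKO (log2 fold change -0.20, adjusted p = 0.247, edgeR). The LKO livers of both genes lay mostly at the low end, with 5 of 6 below all WT livers for *Ncoa2* and 4 of 6 for *Rxra*.

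Of the enzymes that make or clear oxysterols, 4 of 7 genes were tested and 0 passed by edgeR, limma voom or DESeq2, with 1 at an unadjusted p under 0.05. That gene, *Cyp7b1*, the oxysterol 7α-hydroxylase, was 413 ± 158 CPM in WT and 205 ± 64.03 in LKO (log2 fold change -1.01, SE 0.30, adjusted p = 0.182, edgeR). Without WT replicate 3 its log2 fold change was -1.20 and its adjusted p 0.0125 (edgeR). *Cyp7b1* passed in that 1 of 20 alternatives to the main fit. *Cyp39a1*, another oxysterol hydroxylase, was 27.0 ± 10.5 CPM in WT and 34.5 ± 11.2 in LKO (adjusted p = 0.621, edgeR). *Ch25h*, *Sult2b1* and *Hsd3b7* did not pass the filter. *Hsd3b7* is listed at 0 reads in every liver, and 62.4% of its exonic bases also belong to another gene of the annotation, and how such reads were counted was not given in the sources used here.

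The ABC transporters that load cholesterol onto HDL did not pass the test. *Abca1* (ENSMUSG00000015243, chr4:53030787-53159895, minus strand), which lipidates apolipoprotein A-I, ranged from 230 through 255 to 365 CPM in WT and from 215 through 245 to 263 CPM in LKO livers. WT replicate 2 stood above the other 11 livers at 365 CPM, and the other 5 WT livers reached at most 276 CPM. The log2 fold change of *Abca1* was -0.16 (SE 0.099, 95% interval -0.38 to 0.05, adjusted p = 0.555, edgeR), and it was -0.06 without WT replicate 2 and -0.25 with the mean of the Kupffer cell markers as a covariate. *Abcg1* (ENSMUSG00000024030, chr17:31057675-31117988, plus strand), which passes cholesterol to formed HDL particles and is known mainly from macrophages, ranged from 2.97 through 3.39 to 4.04 CPM in WT and from 2.97 through 4.33 to 5.21 CPM in LKO livers. These levels rest on 43 to 112 reads per liver. With 4 of 6 LKO livers above all WT livers, the log2 fold change was 0.26 (SE 0.14, 95% interval -0.035 to 0.56, adjusted p = 0.490, edgeR). With the mean of the Kupffer cell markers as a covariate the *Abcg1* log2 fold change was 0.080 (SE 0.18, adjusted p = 0.952, edgeR). These markers lay above all WT livers in 5 of 6 LKO livers, so the covariate and genotype are hard to separate. Within genotypes, *Abcg1* and these markers had a Pearson r of 0.50 (permutation p = 0.176, adjusted p = 0.769). LKO replicate 2, with a marker sum of 259 CPM, had 3.55 CPM of *Abcg1*, inside the WT range. A part of Kupffer cells in the *Abcg1* level was not tested.

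Of the other genes of these ABC subfamilies, 11 of 14 were tested and 0 passed by edgeR or limma voom and 1, *Abca2*, by DESeq2, with 1 at an unadjusted p under 0.05. *Abca2*, which is known from endosomal and lysosomal membranes, was 81.6 ± 8.09 CPM in WT and 64.4 ± 8.30 in LKO (log2 fold change -0.34, SE 0.091, adjusted p = 0.131, edgeR). *Abcg3* was 1.61 ± 0.33 CPM in WT and 2.14 ± 0.43 in LKO (adjusted p = 0.430, edgeR). *Abca12*, *Abca13* and *Abcg4* did not pass the filter, with at most 2 reads in any liver.

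*Abcg5* and *Abcg8* encode the subunits of the heterodimer that secretes sterols from hepatocytes into bile. *Abcg5* (ENSMUSG00000040505, chr17:84658234-84683011, minus strand) ranged from 53.6 through 73.2 to 84.7 CPM in WT and from 64 through 91.7 to 126 CPM in LKO livers. LKO replicate 1 lay within the WT range and the other 5 LKO livers lay above it. The log2 fold change was 0.42 (SE 0.15, 95% interval 0.099 to 0.73, unadjusted p = 0.0138, adjusted p = 0.273, edgeR). *Abcg8* (ENSMUSG00000024254, chr17:84676302-84700333, plus strand) ranged from 80.0 through 108 to 118 CPM in WT and from 83.0 through 124 to 169 CPM in LKO livers. Its log2 fold change was 0.29 (SE 0.14, 95% interval -0.018 to 0.59, adjusted p = 0.459, edgeR), and LKO replicate 1 was again the lowest LKO liver. Without LKO replicate 4 the log2 fold change was 0.18. The genes share 82 exonic bases on opposite strands, and the strand setting of the counting was not given in the sources used here.

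The levels of the pair varied together from liver to liver. After the mean of each genotype was removed, log2 CPM of *Abcg5* and *Abcg8* correlated over the 12 livers with a Pearson r of 0.94 (permutation p = 0.00033, adjusted p = 0.0148 over 45 gene pairs) and a Spearman rho of 0.87 (permutation p = 0.00123, adjusted p = 0.0553). Without the 2 livers farthest from the median of *Abcg5*, r was 0.88, and it was 0.92 within WT and 0.96 within LKO. Among the other 44 pairs of these genes no r or rho had an adjusted p under 0.05. The mean log2 ratio of *Abcg5* to *Abcg8* CPM was -0.54 ± 0.11 in WT and -0.40 ± 0.089 in LKO, a difference of 0.14 (SD, n = 6; exact two-sided permutation p = 0.0368, adjusted over 2 ratios p = 0.0736). Per kilobase of all annotated exons joined, the *Abcg5* level was 0.956 times that of *Abcg8* in WT and 1.05 times in LKO livers.

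**Figure D2:**
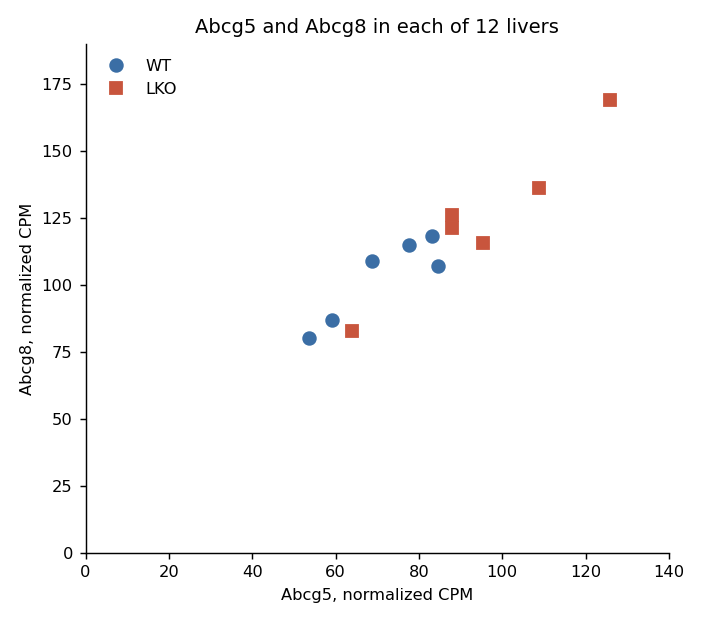
Normalized CPM of Abcg5 (x axis) against Abcg8 (y axis), 1 point per liver, WT as blue circles and LKO as red squares. Livers with more Abcg5 have more Abcg8 in both genotypes, and LKO replicate 1, at 64 and 83.0 CPM, sits among the WT livers.

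*Mylip* (ENSMUSG00000038175, chr13:45389742-45412022, plus strand) encodes an LXR-induced ubiquitin ligase, also called IDOL, that sends lipoprotein receptors to degradation. It ranged from 8.48 through 9.65 to 11.9 CPM in WT and from 9.03 through 12.1 to 13.3 CPM in LKO livers, on 140 to 292 reads. The groups overlapped, with 3 of 6 LKO livers above all WT livers. The log2 fold change was 0.26 (SE 0.11, 95% interval 0.024 to 0.49, unadjusted p = 0.0328, adjusted p = 0.369, edgeR). With the Kupffer cell marker covariate it was 0.14 (SE 0.15, unadjusted p = 0.347, adjusted p = 0.877, edgeR). *Vldlr*, which encodes a receptor that the ligase degrades and has low levels in liver, was 1.01 ± 1.01 CPM in WT and 1.58 ± 0.70 in LKO (adjusted p = 0.611, edgeR). This is an mRNA level, and the ligase acts on protein.

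*Pltp* (ENSMUSG00000017754, chr2:164839518-164857711, minus strand) encodes phospholipid transfer protein, a secreted protein that moves phospholipids between lipoproteins and remodels HDL. It was 31.6, 38.1, 92.3, 58.9, 31.5 and 24.97 CPM in WT replicates 1 to 6 and 159, 112, 112, 161, 170 and 110 CPM in LKO replicates 1 to 6. Every LKO liver lay above every WT liver, and WT replicate 3 was the nearest to the LKO livers. The mean was 46.2 ± 25.4 CPM in WT and 137 ± 28.6 in LKO (SD, n = 6), on 388 to 3954 reads per liver. The log2 fold change was 1.57 (SE 0.27, 95% interval 0.99 to 2.16, adjusted p = 0.0171, edgeR). Without WT replicate 5 it was 1.48 and the adjusted p was 0.0584, so the call was lost there. It kept an adjusted p under 0.05 in 18 of 20 alternatives.

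The other loss was in the fit with the mean of the Kupffer cell markers as a covariate. There the *Pltp* log2 fold change was 1.77 (SE 0.37, unadjusted p = 0.000338, adjusted p = 0.156, edgeR). That fit called 18 genes over all genes, against 75 in the main fit. The markers were above all WT livers in 5 of 6 LKO livers, so it separates them from genotype poorly. Within genotypes, the deviations of *Pltp* and of these markers had a Pearson r of -0.17 (permutation p = 0.505) and a Spearman rho of -0.08 (permutation p = 0.807) over 12 livers, with adjusted p-values of 0.802 and 0.881 over 60 such relations. Without the 2 livers farthest from the median of *Pltp* that r was -0.11. LKO replicate 6, whose marker sum of 187 CPM lies inside the WT range, had 110 CPM of *Pltp*, above all WT livers. A part of Kupffer cells in the *Pltp* level was not tested. *Pltp* shares 495 of its 2562 exonic bases (19.3%) with *Ctsa*, the cathepsin A gene on the opposite strand. *Ctsa* was 126 ± 7.30 CPM in WT and 132 ± 7.87 in LKO (log2 fold change 0.06, adjusted p = 0.731, edgeR). How reads on the shared bases were counted is not given in the sources used here, and their part in the *Pltp* count was not tested.

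**Figure D3:**
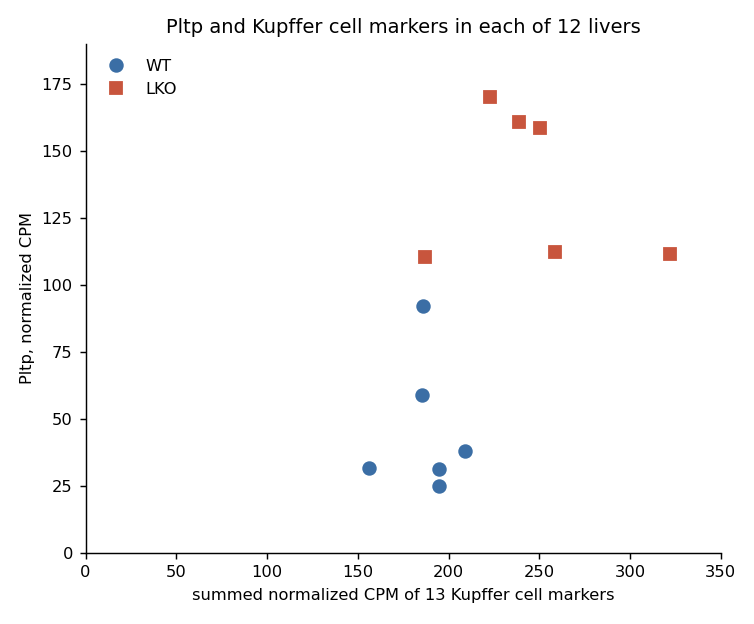
Summed normalized CPM of the 13 Kupffer cell markers (x axis) against normalized CPM of Pltp (y axis), 1 point per liver, WT as blue circles and LKO as red squares. LKO livers lie to the right and above, and LKO replicate 6 lies above all WT livers at a marker sum of 187 CPM, inside the WT range of 156 to 209.

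By a fixed rule, the genes most like *Pltp* in their deviations from the genotype means were *Pdha1* (Pearson r 0.96), *Sgms1* (r 0.94) and *Ces2e* (r 0.93), over 12 livers and among 11267 genes with a mean log2 CPM of at least 1. None of these passed the test between genotypes, with log2 fold changes of 0.06, 0.05 and 0.05. For *Nr1h3* they were *Rbm5* (r 0.92), *Ewsr1* (r 0.86) and *Arv1* (r 0.82), and for *Nr1h2* they were *F12* (r 0.94), *Tdrkh* (r 0.89) and *Vps35l* (r 0.87). These are the highest values of a search over many genes in few livers that share library depth, and are given with no test.

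*Scarb1* and *Soat2* act on cholesterol taken up into or stored in the hepatocyte. *Scarb1* (ENSMUSG00000037936, chr5:125277087-125341094, minus strand), which encodes the HDL receptor SR-BI, ranged from 191 through 233 to 307 CPM in WT and from 181 through 220 to 234 CPM in LKO livers. WT replicate 2 was the highest liver, as for *Abca1*, and the log2 fold change was -0.13 (SE 0.10, 95% interval -0.35 to 0.087, adjusted p = 0.665, edgeR). It was -0.044 without WT replicate 2, -0.085 without LKO replicate 5 and -0.22 with the Kupffer cell marker covariate. *Soat2* (ENSMUSG00000023045, chr15:102150526-102163469, plus strand), which encodes the enzyme that esterifies cholesterol in hepatocytes for storage and secretion, ranged from 24.2 through 30.3 to 35.7 CPM in WT and from 28.3 through 30.9 to 35.3 CPM in LKO livers. The LKO range lay inside the WT range, with a log2 fold change of 0.07 (SE 0.10, 95% interval -0.15 to 0.28, adjusted p = 0.856, edgeR) that ranged from 0.011 to 0.12 over the 20 alternatives.

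**Figure D4:**
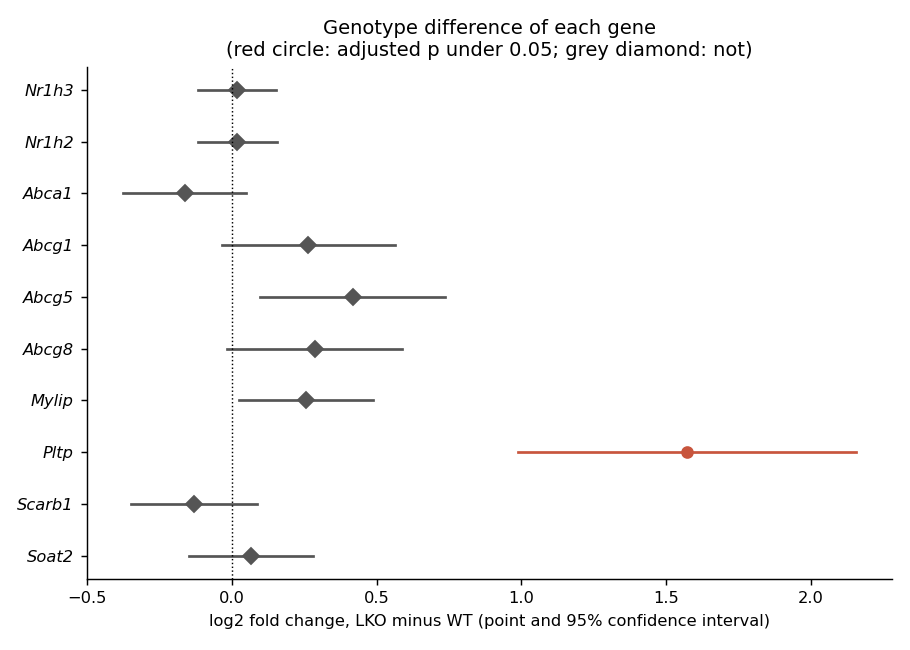
Log2 fold change (LKO minus WT, x axis) of each of the 10 genes with its 95% confidence interval from edgeR, the gene with an adjusted p under 0.05 as a red circle and the others as grey diamonds. Pltp stands at 1.57, and the intervals of Nr1h3 and Nr1h2 stay between -0.12 and 0.15.

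Levels between genes were compared as CPM per kilobase of exon. The length was that of all annotated exons of a gene, joined over its transcripts, such as 8500 bases for *Scarb1* and 2515 for *Nr1h3*. It need not be the length of the transcript expressed in liver, and the order of the genes depends on it. In WT livers *Nr1h3* was the highest at 33.2 ± 2.64 (SD, n = 6), followed by *Scarb1* at 27.8 ± 4.60, *Abcg8* at 27.4 ± 4.16, *Abcg5* at 26.2 ± 4.74 and *Abca1* at 26.1 ± 4.67 CPM per kilobase. *Pltp* followed at 18.1 ± 9.93 and *Soat2* at 13.7 ± 2.20, and the ranges of all neighbours in this order down to *Soat2* overlapped. *Nr1h2* at 9.79 ± 0.57, *Mylip* at 3.02 ± 0.36 and *Abcg1* at 0.472 ± 0.055 CPM per kilobase each lay below the range of the gene before. In LKO livers *Pltp* moved from place 6 to place 1 with 53.6 ± 11.2 CPM per kilobase, ahead of *Abcg5* at 35.0 ± 7.74, with overlapping ranges. The last 4 places, *Soat2*, *Nr1h2*, *Mylip* and *Abcg1*, were the same as in WT.

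Of 18 further LXR target genes outside efflux, *Lpl* and *Tmem86a* rose in LKO livers, 0 fell, and 16 did not pass. Log2 fold changes were positive for 12 and negative for 6, with a median of 0.21. At an unadjusted p under 0.05, 6 were higher and 0 lower in LKO, against 11.7% of all genes in either direction. These genes share regulators and the same livers, so they are not independent. *Tmem86a*, which encodes a lysoplasmalogenase, was 5.43 ± 1.61 CPM in WT and 16.2 ± 1.59 in LKO (2.98-fold, log2 fold change 1.57, SE 0.15, adjusted p = 0.000108, edgeR), and it passed in all 20 alternatives. *Lpl*, which encodes lipoprotein lipase and is at low levels in healthy adult hepatocytes, was 28.5 ± 6.58 CPM in WT and 67.5 ± 25.9 in LKO (2.37-fold, log2 fold change 1.24, SE 0.22, adjusted p = 0.0207, edgeR). For both genes all 6 LKO livers lay above all WT livers. With the Kupffer cell marker covariate the log2 fold change was 1.65 for *Tmem86a* (adjusted p = 0.00333) and 0.78 for *Lpl* (adjusted p = 0.509, edgeR). The *Lpl* call was also lost without WT replicate 4 (adjusted p = 0.0578), WT replicate 5 (0.0698) or LKO replicate 3 (0.0547, edgeR). *Scd1*, the stearoyl-CoA desaturase gene, was 21190 ± 7372 CPM in WT and 33110 ± 2979 in LKO (log2 fold change 0.64, adjusted p = 0.136, edgeR). Without WT replicate 3 its log2 fold change was 0.85 and its adjusted p 0.00263 (edgeR). *Scd1* passed there and with DESeq2, 2 of the 19 alternatives that included it. *Cd5l*, a secreted macrophage protein and itself among the Kupffer cell markers, was 33.2 ± 4.43 CPM in WT and 46.7 ± 10.9 in LKO (log2 fold change 0.49, adjusted p = 0.142, edgeR).

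Of 10 genes of HDL and reverse cholesterol transport 9 were tested and 0 passed by edgeR or limma voom and 1, *Apoa4*, by DESeq2, with 2 at an unadjusted p under 0.05. *Apoa4*, an apolipoprotein made in intestine and liver, was 128 ± 70.9 CPM in WT and 337 ± 167 in LKO (log2 fold change 1.39, SE 0.33, adjusted p = 0.0828, edgeR). Without WT replicate 2 its log2 fold change was 1.75 and its adjusted p 0.0112 (edgeR). *Apoa4* passed in 3 of 20 alternatives, which were this fit, no filter and DESeq2. *Apom*, the sphingosine-1-phosphate carrier of HDL, was 169 ± 14.3 CPM in WT and 148 ± 18.4 in LKO (log2 fold change -0.19, adjusted p = 0.416, edgeR).

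All 14 genes of cholesteryl ester turnover and sterol transport inside the cell were tested, of which 1 rose and 0 fell. At an unadjusted p under 0.05, 1 was higher and 1 was lower in LKO. *Npc2*, which carries cholesterol out of lysosomes, was 56.7 ± 3.99 CPM in WT and 70.1 ± 3.90 in LKO (1.24-fold, log2 fold change 0.31, SE 0.062, adjusted p = 0.0476, edgeR). All 6 LKO livers lay above all WT livers. The *Npc2* call held in 8 of 20 alternatives, and the log2 fold change stayed between 0.27 and 0.33. It was lost with each liver left out except WT replicate 3 and LKO replicate 2, with adjusted p-values of at most 0.11 in those fits, and with the Kupffer cell marker covariate (log2 fold change 0.29, adjusted p = 0.397, edgeR). *Gramd1c* and *Gramd1b*, which encode carriers of cholesterol from the plasma membrane to the endoplasmic reticulum, did not pass. *Gramd1c* was 61.1 ± 12.3 CPM in WT and 50.4 ± 6.85 in LKO (adjusted p = 0.383, edgeR), and *Gramd1b* was 1.91 ± 0.64 and 2.73 ± 0.72 CPM (adjusted p = 0.428, edgeR).

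Of 24 SREBP2 targets, the sterol-sensing arm that opposes LXR, 0 passed by edgeR or limma voom and 2 by DESeq2, with 6 at an unadjusted p under 0.05, all lower in LKO. Over all genes, 11.7% had an unadjusted p under 0.05 and 1.30% did not overlap between the groups. The log2 fold change was negative for 19 and positive for 5, with a median of -0.21 against 0.000165 for all genes tested. These genes share a regulator and the same livers, so their signs are not independent. *Mvk*, the mevalonate kinase gene, was 14.8 ± 1.81 CPM in WT and 10.0 ± 2.24 in LKO, with all LKO livers below all WT livers (log2 fold change -0.57, SE 0.15, adjusted p = 0.117, edgeR). *Srebf2*, the gene of SREBP2 itself, was 76.1 ± 8.22 CPM in WT and 56.6 ± 12.2 in LKO, with 5 of 6 LKO livers below all WT livers (log2 fold change -0.43, SE 0.12, adjusted p = 0.165, edgeR). Without LKO replicate 1 its log2 fold change was -0.54 and its adjusted p 0.0305 (edgeR). *Srebf2* passed in that 1 of 20 alternatives.

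**Figure D5:**
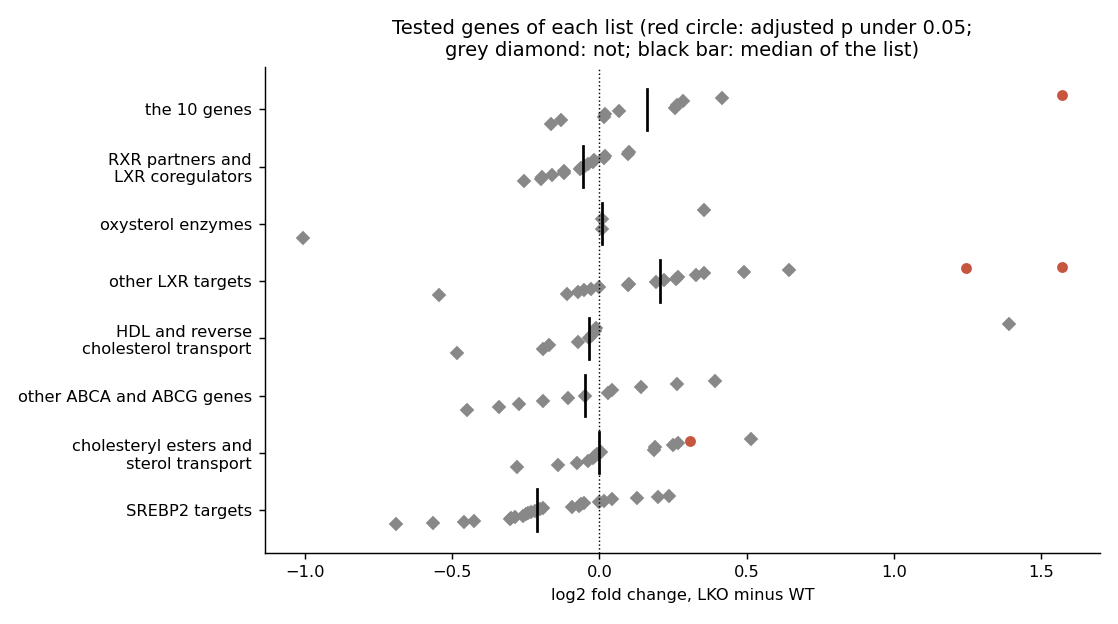
Log2 fold change (LKO minus WT, x axis) of the 10 genes and of every tested gene of 7 further lists, genes with an adjusted p under 0.05 as red circles, others as grey diamonds, and the median of each list as a black bar. Red circles mark Pltp, Lpl, Tmem86a and Npc2, and 19 of the 24 SREBP2 targets lie left of 0.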

How the data were processed

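Liver RNA from 6 WT and 6 LKO mice was analysed, grouped by the genotype in the labels. The authors prepared libraries with a KAPA mRNA HyperPrep kit, trimmed reads with Trimmomatic 0.36, aligned them with HISAT2 2.1.0 (GRCm38.p6) and counted them per Ensembl gene with HTSeq 0.6.1. The values the authors deposited are raw counts, with no normalization or filter. Strand setting and overlap mode were not given in the sources used here, so reads on overlapping genes are uncertain. The study used limma voom, here an alternative.

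Symbols, coordinates and exon lengths were read from GENCODE M21 (GRCm38); 54079 of 54232 identifiers matched it. The filter of the study's methods was kept (a gene needs 6 or more livers above 2 reads). After TMM scaling, edgeR 4.0.16 (R 4.3.3) fitted a quasi-likelihood model with genotype as the only term, two-sided, with Benjamini-Hochberg adjustment over 17509 genes. Standard errors are the log2 fold change divided by the root of F. A prior count of 0.5 was added for log2 CPM. The reads carry no molecular identifiers and are not independent, so depth covers counting error only. Ratios were compared by exact permutation. Correlations of deviations were planned as a description. Their p-values, from 100000 shuffles of livers within genotypes, were added after the data were seen.

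The genes and lists were chosen with earlier results of these data known. Genes named are the 10 genes, from each other list those with an adjusted p under 0.05 and the 2 others with the lowest p, the 3 genes most like *Pltp* and each receptor, and *Marchf6*. Some genes of this rule are left out of the text. *Ctsa*, *Ighm*, *Hsd3b7* and the other genes named as below the filter fall outside this rule and were named after their values were seen. Lists overlap: *Cd5l* is in the LXR targets and Kupffer cell markers, and *Apoa1* in the HDL genes and hepatocyte markers. Alternatives were RLE scaling, scaling without the 20 most abundant genes, no filter, at least 10 reads in every liver, limma 3.58.1 voom, DESeq2 1.42.0, a block for the replicate number, a Kupffer cell marker covariate, and each liver left out. In simulated counts for this comparison (17190 genes), edgeR recovered 59.6% of genes changed by 1 and 92.8% of genes changed by 2 on the log2 scale, with 5.70% false calls. DESeq2 had 13.1% false calls there. Only a small part of these genes was given a change, in a single random draw, so the recovered shares are approximate.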

Additional observations from a re-analysis of the deposited data

Results flagged for a closer look

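A liver was set apart where its gap to the nearest of the other 5 livers of its genotype, divided by the span of all 6, exceeded Dixon's critical value for 6 samples. This held in 7 of 64 groups of 6 livers examined, and chance gives about 1 in 20. WT replicate 2 was high for *Abca1* (365 CPM against 230 to 276, gap 0.653 of the span), *Apoa4* (268 against 82.6 to 134 CPM, 0.723) and *Gramd1c* (85.0 against 49.4 to 59.98 CPM, 0.703). LKO replicate 6 was high for *Nr1h3* (92.4 against 80.3 to 84.8 CPM, 0.630). LKO replicate 1 was high for *Apoa4* (658 against 180 to 324 CPM, 0.697). For *Vldlr*, WT replicate 3 was high (3.05 against 0.353 to 0.772 CPM, 0.844), as was LKO replicate 5 (2.93 against 1.04 to 1.60 CPM, 0.705).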

How the results depend on the processing

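Among the 200 results of the 10 genes under the 20 alternatives, 194 kept their direction and their side of the threshold. The exceptions were *Pltp* without WT replicate 5 and with the Kupffer cell marker covariate, both given above, and the receptors, whose log2 fold changes lay about 0: with a liver left out they ranged from -0.0097 to 0.049 for *Nr1h3* and from -0.0068 to 0.044 for *Nr1h2*. Of the 10 genes 1 was called in 18 alternatives and 0 without WT replicate 5 and with the covariate, so 0 to 1 with a liver left out. Over all genes, 75 were called (64% higher), against 114 with no filter, 351 with DESeq2 (51.6% higher) and 18 with the covariate, and 38 (without WT replicate 5) to 132 (without WT replicate 3) with a liver left out. For the further LXR targets, 4 were called with DESeq2, 1 with the covariate, and 1 to 3 with a liver left out. For the HDL genes 1 was called with no filter and 1 with DESeq2, for the other ABC genes 1 with DESeq2, and for the SREBP2 targets 2 with DESeq2. With a liver left out, 0 to 1 were called for the oxysterol enzymes, the HDL genes and the cholesteryl ester and sterol transport genes, and 0 to 2 for the SREBP2 targets. For the cholesteryl ester and sterol transport genes 0 were called with the covariate. The cause of these changes was not tested. The log2 ratio of *Nr1h3* to *Nr1h2* differed by -0.036 to 0.051 with a liver left out, and that of *Abcg5* to *Abcg8* by 0.11 to 0.18, with an adjusted p of 0.0173 without WT replicate 5 and 0.0433 without LKO replicate 2 (exact permutation tests).

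The replicate numbers in the labels belong to different mice. Deviations of same-numbered livers correlated above 0.1 in 4 of 6 pairs (-0.065 to 0.135). Among the 6 livers of the other genotype, 5 of 12 livers correlated best with their own number. Whether same-numbered livers share a batch or other structure was not tested. The main fit leaves them unpaired, and the replicate block is given as an alternative. With the replicate block 97 genes were called, against 75 without it, and 0 of the cholesteryl ester and sterol transport genes. The *Abcg5* to *Abcg8* ratio then had an adjusted p of 0.0625 (exact sign-flip permutation test). With 6 differences and the other ratio at 0.969, this is the lowest value that test can give. It could therefore not fall under 0.05 and does not show a failure to pass. The block changed no call among the 10 genes. In simulated counts 59.6% of changes of 1 on the log2 scale were recovered, so smaller changes may go undetected at 6 livers per genotype.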

Other observations

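Of the 60 relations between the deviations of the 10 genes and those of 6 marker lists within genotypes, the lowest p was that of *Nr1h3* with the stellate cell markers. Their Pearson r was -0.85 (permutation p = 0.00096, adjusted p = 0.0576) and their Spearman rho -0.84 (permutation p = 0.00128, adjusted p = 0.0615) over 12 livers. Without the 2 livers farthest from the median of *Nr1h3*, r was -0.66, and it was -0.89 within WT and -0.84 within LKO. The next was *Mylip* with the sinusoidal endothelial cell markers, with r 0.79 (permutation p = 0.0063, adjusted p = 0.189) and rho 0.84 (permutation p = 0.00205, adjusted p = 0.0615), and r 0.71 without the 2 livers farthest from the median of *Mylip*. All 12 livers enter with their shared library depth, and what moves with these levels was not tested.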
